A study of Mus musculus with 228 samples.

Results

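MHC class II genes were followed through single hippocampal neurons that carried a virus encoding the transcription factor Ascl4 or only a virus encoding the green fluorescent protein EGFP. The set held 7 of the 22870 genes in the deposited counts, Cd74, H2-Aa, H2-Ab1, H2-Eb1, H2-DMa, H2-DMb1 and Ciita. These genes were chosen from the measured contrast of Ascl4 with EGFP cells, so the levels below are a description and none of them was tested.

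MHC class II molecules are pairs of an alpha and a beta chain that show peptides from engulfed proteins to helper T cells. The invariant chain Cd74 guides the newly made pairs to the endosome, where the DM proteins help to load the peptide. Dendritic cells, B cells and macrophages are known for these genes, resting microglia carry little of them, and activated microglia can gain them. The coactivator Ciita switches the family on together with the RFX, CREB and NF-Y proteins, which bind the X and Y boxes in front of these genes, and interferon gamma induces Ciita.

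The cells came from acute slices of the ventral hippocampus of mice aged 3 to 4 months, 1 month after the injection of the virus. The Ascl4 GC group (51 cells) were granule cells of Calb1-Cre mice that received Cre-dependent AAV-EGFP together with AAV-Ascl4, and the EGFP GC group (47 cells) were granule cells of the same line with AAV-EGFP alone. The Ascl4 CA1 group (45 cells) and the EGFP CA1 group (46 cells) were pyramidal cells of the medial CA1 field of Nex-Cre mice with the same viruses. Each cell was drawn into a patch pipette and sequenced alone. All groups carried Cre and EGFP. The EGFP groups had no second virus in place of AAV-Ascl4, so Ascl4 and a second virus cannot be told apart, nor can cell type and Cre line. The labels name no animal. Each group therefore counted as 1 sample, and the intervals cover counting error only.

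The kept cells held 1077532 to 25442664 reads, with a median of 6889 genes. Ascl4 itself stood at 14111 CPM (reads summed over the cells of a group and scaled to a total of 1000000) in Ascl4 GC and 47.2 CPM in EGFP GC cells, and at 9395 CPM in Ascl4 CA1 and 32.6 CPM in EGFP CA1 cells. Single cells reached 182.9 to 44534 CPM in Ascl4 GC and 0.335 to 221.7 CPM in EGFP GC cells, and 23.2 to 31943 CPM in Ascl4 CA1 and 0.781 to 153.2 CPM in EGFP CA1 cells, so the lowest Ascl4 cells lay within the EGFP range. Prox1, a factor that defines granule cells, was at 156.2 CPM in Ascl4 GC and 175.3 CPM in EGFP GC cells, against 7.78 CPM in Ascl4 CA1 and 0.240 CPM in EGFP CA1 cells. Neurod6, a factor of pyramidal neurons, was at 1.23 CPM in Ascl4 GC, 0.112 CPM in EGFP GC, 94.2 CPM in Ascl4 CA1 and 319 CPM in EGFP CA1 cells. A set of 5 cells stood apart with more than 12000 genes each, Ascl4 GC cells WA117, WA118, WA119 and WA120 and Ascl4 CA1 cell WA228. Cells are named here by group and by the label in their title.

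Positions are given on GRCm38. The class II region of chromosome 17 holds H2-DMa (chr17:34119541-34139101, plus strand), H2-DMb1 (chr17:34153072-34160230, plus), H2-Ab1 (chr17:34257689-34269419, plus), H2-Aa (chr17:34282744-34287823, minus) and H2-Eb1 (chr17:34305867-34316674, plus). Ciita lies outside it at chr16:10480059-10528418, plus strand, and its span overlaps the gene Dexi, with shared exon bases not measured here. The span of H2-Eb1 overlaps Gm20513 by 2204 bases, of which 0 are exonic in both. The span of H2-DMa overlaps Brd2, a gene of the opposite strand, by 3094 bases, of which 360 are exonic in both. Whether the counting used strand is not given in the sources used here, so reads of H2-DMa and Brd2 in those bases cannot be told apart. The same limit may hold for Ciita and Dexi. H2-DMb1 and H2-DMb2 are close copies, and the split of reads between them is uncertain.

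The promoters are shown because several members were carried by the same cells. They are the bases just before the gene start, from RefSeq on GRCm38.p6, 5′ to 3′ on the strand of the gene, with capitals for the letters searched on both strands. These were an X box pattern of 11 letters, which AGCAACTGATG of H2-Eb1 and AGTAACTGATG of H2-DMb1 match, and the Y box ATTGG.
H2-Eb1, chr17:34305617-34305866, plus strand: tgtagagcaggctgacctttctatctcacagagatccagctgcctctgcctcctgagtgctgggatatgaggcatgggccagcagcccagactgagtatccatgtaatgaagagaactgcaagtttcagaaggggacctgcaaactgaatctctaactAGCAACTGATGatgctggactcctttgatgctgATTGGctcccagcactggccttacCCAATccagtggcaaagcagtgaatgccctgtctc
H2-Aa, chr17:34287824-34288073, minus strand: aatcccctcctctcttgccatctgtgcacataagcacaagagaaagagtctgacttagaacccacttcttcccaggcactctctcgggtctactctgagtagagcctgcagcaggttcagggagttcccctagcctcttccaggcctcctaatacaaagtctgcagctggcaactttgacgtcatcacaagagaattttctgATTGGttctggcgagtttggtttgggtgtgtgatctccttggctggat
H2-DMb1, chr17:34153087-34153116, plus strand, the 30 bases around the X box letters: ggtttacctAGTAACTGATGatgctaggct

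The X box letters began 92 bases before the start of H2-Eb1 and 95 bases before that of H2-DMb1. For H2-DMb1 these bases count from its RefSeq start at chr17:34153191, which lies inside the GENCODE span given above, so its X box letters lie inside that span as well. Y box letters lay 59 and 35 bases before the start of H2-Eb1, 61 bases before H2-DMb1 and 48 bases before H2-Aa. In the 250 bases before H2-Aa the searched X box letters had no match. Neither box matched before the first of the 2 listed starts of H2-DMa, and a Y box lay farther upstream of the other. Of 32851 mouse promoters of that length, 0.816% held the X box letters, 33.8% the Y box letters and 0.292% both. The letters of an interferon-activated site, TTCNNNGAA, were in 7.02% of all promoters and in none of the member windows matched by symbol, which covered 4 of the 7 genes. A match or its lack describes these letters in these windows and nothing more.

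Cd74, the invariant chain, lies at chr18:60803848-60812652 on the plus strand. It had the highest level per kilobase of exon among the 7 genes in both Ascl4 groups, at 43.3 CPM per kb in Ascl4 GC and 157.6 CPM per kb in Ascl4 CA1 cells. In Ascl4 GC cells it ran from 0 through a median of 0 to 1394 CPM, and in EGFP GC cells from 0 through a median of 0 to 1.59 CPM. In Ascl4 CA1 cells it ran from 0 through a median of 0.600 to 4771 CPM, and in EGFP CA1 cells from 0 through a median of 0 to 139.4 CPM. Most cells of each group had few reads or none, and a small number of Ascl4 cells had much. At 10 CPM or more, the mark used here for a cell that carries a gene, Cd74 was in 8 of 51 Ascl4 GC cells (15.7%, exact Clopper-Pearson 95% interval 7.02% to 28.6%). It was in 0 of 47 EGFP GC cells, with an exact upper limit of 7.55%, or 6.38% by a limit of 3 counts for a count of 0. It was in 13 of 45 Ascl4 CA1 cells (28.9%, 16.4% to 44.3%) and 1 of 46 EGFP CA1 cells (2.17%, 0.0550% to 11.5%). No kept cell lay between 2.86 and 49.3 CPM, so the counts do not turn on the choice of 10 CPM.

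Summed over cells, Cd74 reached 72.7 CPM (21315 reads) in Ascl4 GC and 0.135 CPM (29 reads) in EGFP GC cells, a log2 ratio of 6.02 with a pseudocount of 1 CPM. In CA1 it reached 265 CPM in Ascl4 cells and 2.79 CPM in EGFP cells, a log2 ratio of 6.13. In the order Ascl4 CA1, Ascl4 GC, EGFP CA1 and EGFP GC the counting intervals of neighbours did not overlap, although single cells of all 4 groups overlapped at 0. Those intervals take reads and not cells as the unit, so they do not order the groups. The sums rested on few cells. Ascl4 GC cell WA032 gave 44.6% of the Cd74 reads of its group, Ascl4 CA1 cell WA226 gave 57.6%, and EGFP CA1 cell WA185 gave 95.4%. Without cell WA226 the CA1 log2 ratio was 4.95. As a mean over cells without the highest cell of each group, the ratios were 5.47 in GC and 6.92 in CA1. The EGFP means were then 0.0968 CPM in GC and 0.176 CPM in CA1.

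**Figure D1:**
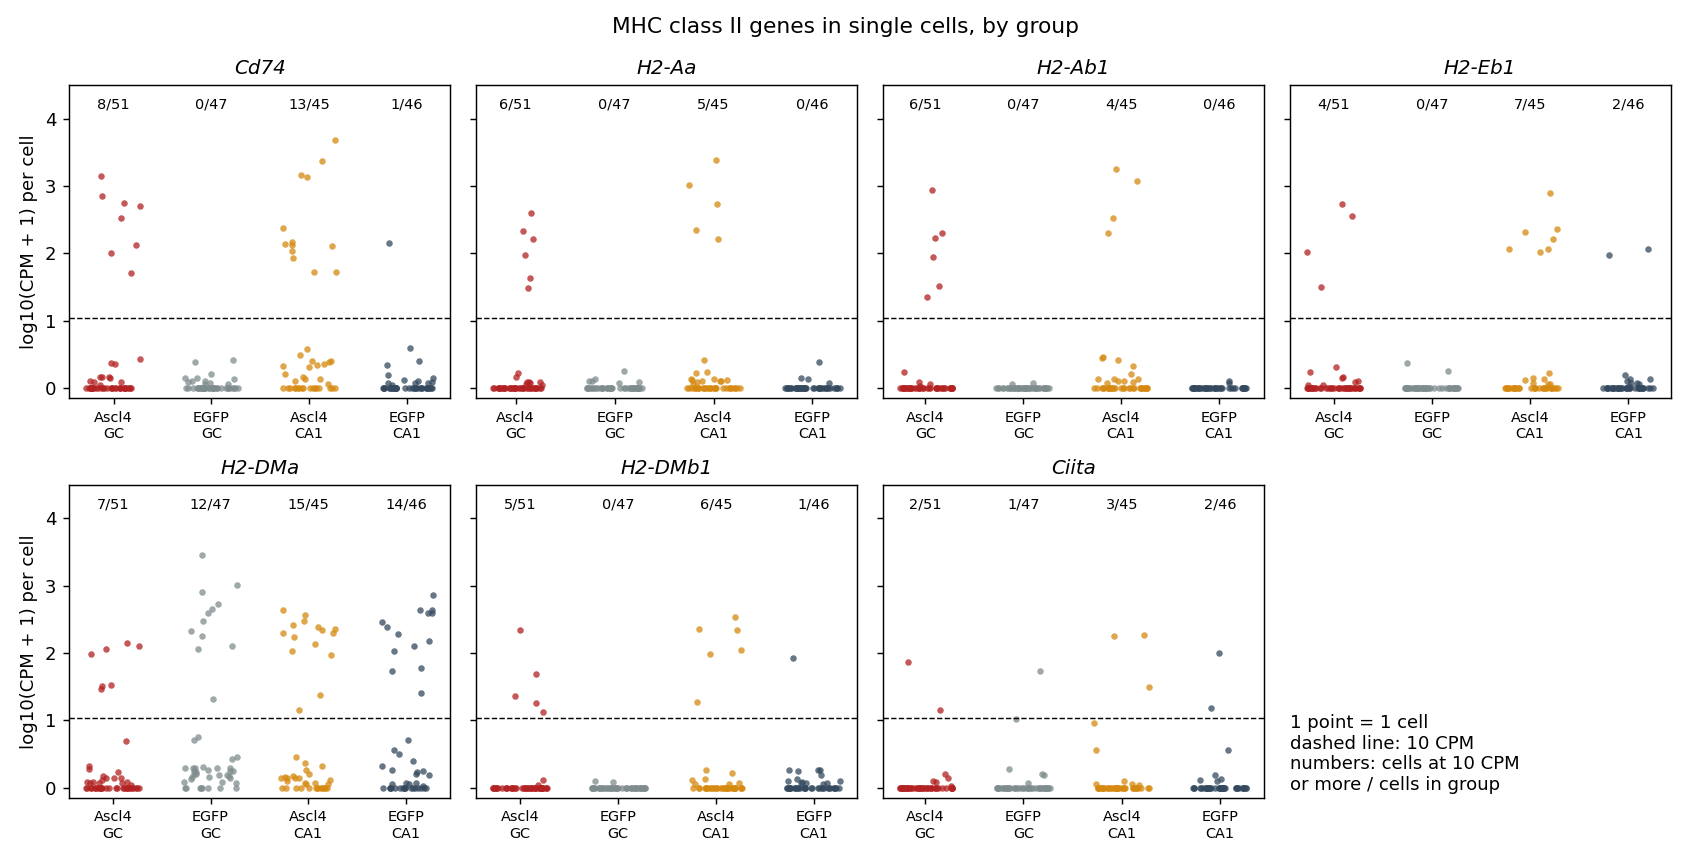
Level of each MHC class II gene in single cells, as log10(CPM + 1) on the vertical axis, for Ascl4 GC, EGFP GC, Ascl4 CA1 and EGFP CA1 cells from left to right. Each point is 1 cell, the dashed line is at 10 CPM, and the numbers above give the cells at or over it. Cd74, H2-Aa and H2-Ab1 form a separate upper cloud in Ascl4 cells, with 1 EGFP CA1 cell in that of Cd74, whereas H2-DMa has such a cloud in all 4 groups.

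The alpha and beta chains of the H2-A molecule, H2-Aa and H2-Ab1, were carried by Ascl4 cells only among the kept cells. H2-Aa was at 10 CPM or more in 6 of 51 Ascl4 GC and 0 of 47 EGFP GC cells, and in 5 of 45 Ascl4 CA1 and 0 of 46 EGFP CA1 cells. H2-Ab1 was in 6 Ascl4 GC and 0 EGFP GC cells, and in 4 Ascl4 CA1 and 0 EGFP CA1 cells. Its median was 0 in all 4 groups, as was that of H2-Aa. The highest H2-Aa cells were Ascl4 GC cell WA032 at 392 CPM against EGFP GC cell WA016 at 0.793 CPM, and Ascl4 CA1 cell WA124 at 2414 CPM against EGFP CA1 cell WA193 at 1.43 CPM. The highest H2-Ab1 cells were Ascl4 GC cell WA108 at 874 CPM against EGFP GC cell WA090 at 0.167 CPM, and Ascl4 CA1 cell WA226 at 1781 CPM against EGFP CA1 cell WA148 at 0.270 CPM. Summed over cells, H2-Aa was at 19.5 CPM in Ascl4 GC and 0.0419 CPM in EGFP GC cells (log2 ratio 4.30), and at 81.7 CPM in Ascl4 CA1 and 0.0321 CPM in EGFP CA1 cells (6.32). H2-Ab1 was at 12.1 CPM in Ascl4 GC cells and rested on 2 reads in EGFP GC cells, a ratio of 1297 with a counting interval of 359 to 10715. In CA1 it was at 79.7 CPM in Ascl4 against 0.0200 CPM in EGFP cells (log2 ratio 6.31). Without cell WA226, which gave 71.4% of the H2-Ab1 reads of its group, that log2 ratio was 4.59. Without the cells of more than 12000 genes, the GC log2 ratio of H2-Ab1 was 3.11 in place of 3.69.

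H2-Eb1, the beta chain of the H2-E molecule, was carried by EGFP cells too, unlike the H2-A chains. It was at 10 CPM or more in 4 of 51 Ascl4 GC and 0 of 47 EGFP GC cells, and in 7 of 45 Ascl4 CA1 and 2 of 46 EGFP CA1 cells. The median was 0 in every group, and the highest cells stood at 535 CPM in Ascl4 GC, 1.32 CPM in EGFP GC, 781 CPM in Ascl4 CA1 and 115.3 CPM in EGFP CA1 cells. EGFP CA1 cells WA206 and WA208, at 91.9 and 115.3 CPM, lay within the range of the Ascl4 CA1 cells. The log2 ratio was 4.34 in GC, with 20.4 CPM in Ascl4 against 0.0512 CPM in EGFP cells, and 3.08 in CA1, with 33.1 CPM in Ascl4 against 3.03 CPM in EGFP cells. Ascl4 GC cell WA032 alone gave 61.2% of the H2-Eb1 reads of its group, and without the highest cells the GC log2 ratio of mean levels was 3.42.

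The peptide-loading chains H2-DMa and H2-DMb1 parted. H2-DMb1 was at 10 CPM or more in 5 of 51 Ascl4 GC and 0 of 47 EGFP GC cells and in 6 of 45 Ascl4 CA1 and 1 of 46 EGFP CA1 cells. It summed to 4.79 CPM in Ascl4 GC cells and 2 reads in EGFP GC cells, a ratio of 515 with a counting interval of 142.3 to 4257 (log2 ratio 2.52 with the pseudocount). Ascl4 GC cell WA116 alone gave 64.5% of those Ascl4 reads, and mean levels taken after dropping the top cell of each group gave a log2 ratio of 1.57, with 1.98 CPM in Ascl4 GC and 0.0046 CPM in EGFP GC cells. In CA1 it was at 18.9 CPM in Ascl4 against 1.41 CPM in EGFP cells, a log2 ratio of 3.05, and EGFP CA1 cell WA212 gave 92.02% of the EGFP reads. H2-DMa was carried in all groups, by 7 of 51 Ascl4 GC and 12 of 47 EGFP GC cells and by 15 of 45 Ascl4 CA1 and 14 of 46 EGFP CA1 cells. Its level was lower in Ascl4 GC cells, at 11.1 CPM against 115.4 CPM in EGFP GC cells (log2 ratio -3.27). In CA1 it was at 74.01 CPM in Ascl4 against 89.9 CPM in EGFP cells (log2 ratio -0.28). Single cells reached 142.2 CPM in Ascl4 GC, 2807 CPM in EGFP GC, 427 CPM in Ascl4 CA1 and 727 CPM in EGFP CA1 cells, and the 4 ranges overlapped.

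H2-DMa was the member that most EGFP carriers held, mostly without the others. Of the cells with H2-DMa at 10 CPM or more, 1 of 7 Ascl4 GC and 11 of 12 EGFP GC cells had none of the other 6 genes at that level, as had 8 of 15 Ascl4 CA1 and 13 of 14 EGFP CA1 cells. Brd2, whose span it overlaps, encodes a chromatin reader that many cell types express. Brd2 was at 10 CPM or more in 5 of the 7 Ascl4 GC cells, 4 of the 12 EGFP GC cells, 7 of the 15 Ascl4 CA1 cells and 7 of the 14 EGFP CA1 cells that carried H2-DMa. Across cells, Pearson's r of log2(CPM + 1) between H2-DMa and Brd2 was 0.16 in Ascl4 GC, -0.00 in EGFP GC, 0.14 in Ascl4 CA1 and 0.06 in EGFP CA1 cells (n = 51, 47, 45 and 46 cells of shared libraries). EGFP GC cell WA066, the highest for H2-DMa, had 0.610 CPM of Brd2.

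Ciita, the coactivator of the family, was the least abundant member per kilobase in both Ascl4 groups, at 0.218 CPM per kb in Ascl4 GC and 0.939 CPM per kb in Ascl4 CA1 cells. It was at 10 CPM or more in 2 of 51 Ascl4 GC and 1 of 47 EGFP GC cells, and in 3 of 45 Ascl4 CA1 and 2 of 46 EGFP CA1 cells. The Ascl4 GC cells were WA039 (72.04 CPM) and WA118 (13.2 CPM), and the EGFP GC cell was WA011 (52.5 CPM). In CA1 they were Ascl4 cells WA121 (184.6 CPM), WA131 (179.2 CPM) and WA231 (29.8 CPM) and EGFP cells WA186 (97.8 CPM) and WA212 (14.005 CPM). Cell WA121 also held 481.5 CPM of Prox1 beside 176.7 CPM of Neurod6 and was the 1 Ascl4 CA1 cell with Prox1 at 10 CPM or more. Just under the mark were EGFP GC cell WA099 at 9.35 CPM and Ascl4 CA1 cell WA228 at 8.17 CPM. The pooled level was 2.08 CPM in Ascl4 GC and 1.58 CPM in EGFP GC cells (log2 ratio 0.26), and 8.96 CPM in Ascl4 CA1 and 1.62 CPM in EGFP CA1 cells (1.92). The CA1 difference turned round in the second run of title numbers, where Ciita was at 1.53 CPM in Ascl4 against 2.50 CPM in EGFP cells (log2 ratio -0.47).

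Against all genes, the counts stood as follows. In GC, 4 of the 7 genes were at least 10-fold higher in Ascl4 cells after the pseudocount, whereas 2.21% of the 9783 expressed genes were. Of these 4, H2-Ab1 and H2-Eb1 did not pass the filter for expressed genes, 25% of the cells of 1 group with a read and 10 CPM, which 3 members passed in GC and 6 in CA1. At least 1.5-fold higher were 5 members (25.6% of expressed genes), and 1, H2-DMa, was at least 1.5-fold lower (30.7%). In CA1, 3 members were at least 10-fold higher (1.23% of 9781 expressed genes), 6 at least 1.5-fold higher (24.04%) and 0 at least 1.5-fold lower (24.3%). At 10 CPM in at least 5% of the Ascl4 cells and in no EGFP cell were 5 members in GC (2.35% of all genes with a read) and 2 in CA1 (1.48%). The median log2 ratio of the 7 genes was 3.69 in GC and 3.08 in CA1, against -0.08 and -0.02 for all expressed genes. The members were picked on this contrast, and nothing is read from these counts beyond the description.

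The genes were carried together by some cells and singly by others. Of 51 Ascl4 GC cells, 14 carried at least 1 of the 7 genes, 8 at least 2 and 6 at least 3. Of 47 EGFP GC cells, 12 carried at least 1, 1 at least 2 and 0 at least 3. Of 45 Ascl4 CA1 cells, 26 carried at least 1, 11 at least 2 and 5 at least 3, against 18, 1 and 1 of 46 EGFP CA1 cells. The single-gene cells of the EGFP groups were mostly H2-DMa cells. Without H2-DMa, at least 1 of the other 6 genes was in 13 Ascl4 GC and 1 EGFP GC cells, and in 18 Ascl4 CA1 and 5 EGFP CA1 cells. At least 3 of these 6 were in 5 Ascl4 GC and 0 EGFP GC cells, and in 4 Ascl4 CA1 and 0 EGFP CA1 cells.

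The cells with the fullest sets were few and can be named. Ascl4 GC cell WA118 carried all 7 genes, at 499 CPM of Cd74, 161.1 of H2-Aa, 201.2 of H2-Ab1, 30.9 of H2-Eb1, 31.1 of H2-DMa, 17.005 of H2-DMb1 and 13.2 of Ciita. Cell WA116 carried 6, all but Ciita, with 549 CPM of Cd74, 92.04 of H2-Aa, 166.02 of H2-Ab1, 358 of H2-Eb1, 96.2 of H2-DMa and 220.9 of H2-DMb1. This cell, titled as a granule cell, had 0 CPM of Prox1 and 79.3 CPM of Neurod6. Cell WA119 carried 5, with 714 CPM of Cd74 and 0.381 CPM of H2-Eb1. Cell WA120 carried 4, Cd74, H2-Aa, H2-Ab1 and H2-DMa, at 21.04 to 99.2 CPM. Cell WA114 carried Cd74 at 329 CPM, H2-Eb1 at 103.01 CPM and H2-DMa at 142.2 CPM, with 1 read each of H2-Aa and H2-Ab1. Cells WA118, WA119 and WA120 had more than 12000 genes each. Without the cells above 12000 genes, 3 Ascl4 GC cells carried at least 3 members.

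Among Ascl4 CA1 cells, WA124, WA220 and WA226 each carried 6 genes, all but Ciita. Cell WA226 held 4771 CPM of Cd74, 545 of H2-Aa, 1781 of H2-Ab1, 203.4 of H2-Eb1, 198.3 of H2-DMa and 220.4 of H2-DMb1. Cell WA124 held 2350 CPM of Cd74, 2414 of H2-Aa, 1164 of H2-Ab1, 781 of H2-Eb1, 262 of H2-DMa and 225.0 of H2-DMb1. Cell WA220 held the 6 genes at 164.1 CPM (H2-Eb1) to 342 CPM (H2-DMb1). Cell WA235 carried 5, with 1360 CPM of Cd74 and no read of H2-DMa. Cell WA131 carried Cd74, H2-DMa and Ciita and no read of the chain genes. EGFP CA1 cell WA212 carried H2-DMa at 123.97 CPM, H2-DMb1 at 83.8 CPM and Ciita at 14.005 CPM, and was the EGFP cell with the most members. It had no read of Cd74, H2-Aa or H2-Ab1.

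Partial sets were found as well. Both chains of H2-A together were in 4 Ascl4 GC and 0 EGFP GC cells and in 4 Ascl4 CA1 and 0 EGFP CA1 cells, and each of these 8 cells also carried Cd74. Either chain was in 13 Ascl4 cells. Ascl4 GC cell WA032, with 1394 CPM of Cd74, 392 CPM of H2-Aa and 535 CPM of H2-Eb1, had 0.733 CPM of H2-Ab1. Ascl4 CA1 cell WA177, with 1447 CPM of Cd74 and 1033 CPM of H2-Aa, had no read of H2-Ab1. Ascl4 GC cell WA043 carried H2-Aa alone (212.9 CPM), and cells WA025 (31.9 CPM) and WA108 (874 CPM) carried H2-Ab1 alone. Cd74 without any of the 4 genes H2-Aa, H2-Ab1, H2-Eb1 and H2-DMb1 was found in 1 of the 8 Cd74 cells of Ascl4 GC, in 6 of the 13 of Ascl4 CA1 and in the 1 of EGFP CA1.

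**Figure D2:**
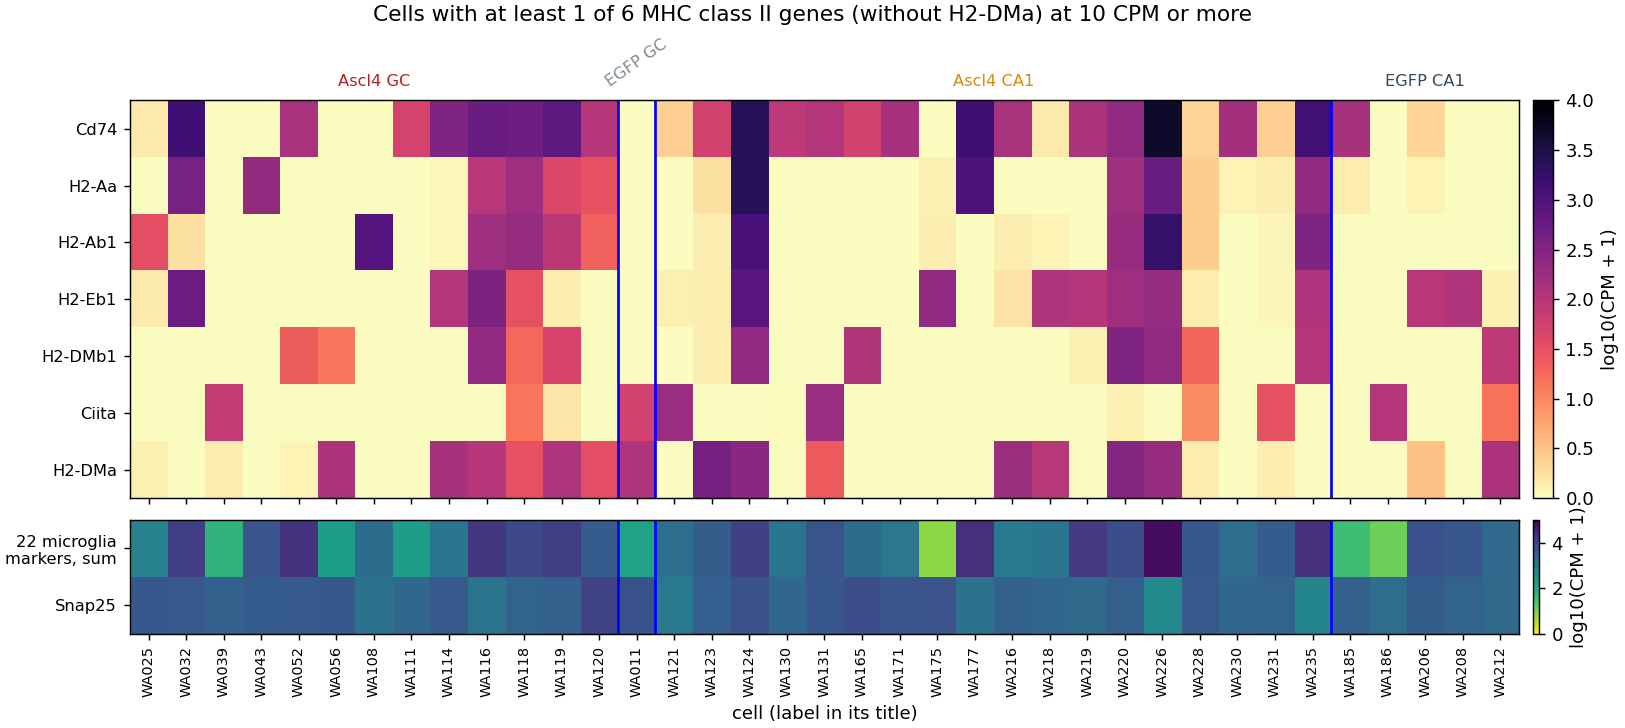
Cells that carried at least 1 of the 6 genes other than H2-DMa at 10 CPM or more, in columns by group, Ascl4 GC, EGFP GC, Ascl4 CA1 and EGFP CA1 from left to right, with the label in the cell's title below. Colours give log10(CPM + 1) of the 7 genes above, and of the summed microglia markers and the neuronal gene Snap25 below. The dark columns of Ascl4 GC cells WA116 and WA118 and Ascl4 CA1 cells WA124, WA220 and WA226 hold 6 or 7 genes, and most other columns hold 1 or 2.

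Over the 96 Ascl4 cells of both types, Cd74 was in 21 cells and shared most of the cells of the chain genes. It was in 10 of the 11 H2-Aa cells, 8 of the 10 H2-Ab1 cells, 9 of the 11 H2-Eb1 cells and 9 of the 11 H2-DMb1 cells. These shared cells were 47.6%, 38.1%, 42.9% and 42.9% of the Cd74 cells. With H2-DMa it shared 11 cells, of 22 that carried H2-DMa, and with Ciita it shared 2 of 5 Ciita cells. Pearson's r of log2(CPM + 1) in Ascl4 CA1 cells was 0.86 for H2-Ab1 with H2-DMb1 and 0.84 for H2-Aa with H2-Ab1 (n = 45 cells, each a library shared by both genes). In Ascl4 GC cells it was 0.76 for Cd74 with H2-Eb1 and 0.71 for Cd74 with H2-Aa (n = 51). Ciita had r of at most 0.21 with any member in either Ascl4 group. Of the 5 Ascl4 cells that carried Ciita, 2 also carried Cd74, H2-Aa, H2-Ab1, H2-Eb1 or H2-DMb1, as did 1 of the 3 EGFP cells.

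The numbers in the titles fell into separate runs in each group, which the labels do not call batches. Cd74 was in 2 of 33 cells of the first run and 6 of 18 cells of the second run in Ascl4 GC, and in 0 of 15 and 0 of 32 EGFP GC cells. In CA1 it was in 4 of 17 and 9 of 28 Ascl4 cells and in 0 of 15 and 1 of 31 EGFP cells. What is called the second run of Ascl4 CA1, for Ciita above as well, joined 2 blocks of numbers. These were WA163 to WA180 (12 cells) and WA216 to WA235 (16 cells). Cd74 was in 3 and 6 cells of these blocks, H2-Ab1 in 0 and 3, and H2-Eb1 in 1 and 5. The direction of the Cd74 difference was the same in each run. The pooled level of Cd74 was 63.6 CPM in Ascl4 GC and 0.235 CPM in EGFP GC cells of the first run, and 83.7 CPM in Ascl4 GC and 0.0841 CPM in EGFP GC cells of the second. In CA1 it was 77.6 CPM in Ascl4 against 0.0564 CPM in EGFP cells of the first run, and 416 CPM in Ascl4 against 4.29 CPM in EGFP cells of the second. H2-Ab1 and H2-DMb1 leaned on the second run in GC. H2-Ab1 reached 1.35 CPM in Ascl4 GC against 0.0138 CPM in EGFP GC cells of the first run (log2 ratio 1.21), and 24.9 CPM in Ascl4 GC against 0.0070 CPM in EGFP GC cells of the second (4.69). The log2 ratio of H2-DMb1 was 1.07 in the first run and 3.33 in the second. Of the 6 Ascl4 GC cells with at least 3 genes, 5 were in the second run, cells WA114, WA116, WA118, WA119 and WA120.

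Markers of microglia moved with Cd74 across Ascl4 cells and less with the other members, and their part in the result was not tested. The summed CPM of 22 microglia markers ran from 0.401 through a median of 165.6 to 18482 in Ascl4 GC cells and from 0.960 through 31.8 to 18170 in EGFP GC cells. In Ascl4 CA1 cells it ran from 1.15 through 1272 to 66805, and in EGFP CA1 cells from 8.51 through 852 to 27569. Pooled, 13 of the 22 were at least 1.5-fold higher in Ascl4 GC cells and 16 in Ascl4 CA1 cells, and 1 was at least 1.5-fold lower in each, where 25.6% and 24.04% of all expressed genes were higher and 30.7% and 24.3% lower. Of the 22, 19 passed the filter for expressed genes in GC and 21 in CA1. None of the 22 was at 0 reads in any group. C1qb, a complement gene of microglia, was at 386 CPM in Ascl4 GC and 140.4 CPM in EGFP GC cells, and at 988 CPM in Ascl4 CA1 and 372 CPM in EGFP CA1 cells. Tmem119, a microglial membrane gene, was at 24.2 CPM in Ascl4 GC and 0.0093 CPM in EGFP GC cells. At least 10-fold higher were 4 of the 22 in Ascl4 GC cells, where 2.21% of expressed genes were. In Ascl4 CA1 cells 0 of the 22 were, Tmem119 included, where 1.23% of expressed genes were.

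Markers of oligodendrocytes, the cells that make myelin, were higher in Ascl4 GC cells too. All 5 were at least 1.5-fold higher in GC, with a sum of 7461 CPM in Ascl4 and 542 CPM in EGFP cells, and 2 of the 5 were so in CA1, with 808 CPM in Ascl4 and 704 CPM in EGFP cells. Per cell the order was the other way at the median, with 43.5 CPM in Ascl4 GC and 173.3 CPM in EGFP GC cells, and the highest cells reached 113983 CPM in Ascl4 GC and 5314 CPM in EGFP GC. Ascl4 GC cell WA117 alone gave 48.5% of the reads of Mbp, a myelin protein gene, in its group. Pearson's r of Cd74 with this sum was 0.44 in Ascl4 GC and 0.33 in Ascl4 CA1 cells (n = 51 and 45), and its part in the result was not tested.

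Within the Ascl4 groups, nearly all carriers of Cd74 held microglial RNA. A microglia sum of 1000 CPM or more was found in 7 of 8 Cd74 cells and 18 of all 51 cells of Ascl4 GC, and in 12 of 13 Cd74 cells and 27 of all 45 cells of Ascl4 CA1. Every cell with at least 3 members, in whichever group, had such a sum. In the EGFP groups the same sum was found in 6 of 47 GC and 21 of 46 CA1 cells, none of which carried Cd74. EGFP GC cell WA091 had 18170 CPM of microglia markers and no read of Cd74. EGFP CA1 cells WA157, WA149, WA197 and WA156, with 27569, 16482, 15667 and 13745 CPM of microglia markers, also had none. Ascl4 CA1 cell WA138, with 19539 CPM, had none either, so microglial RNA was present with and without Cd74 in that group. EGFP CA1 cell WA185, the Cd74 cell of its group, had 35.3 CPM of microglia markers. Pearson's r of Cd74 with the microglia sum was 0.51 in Ascl4 GC and 0.55 in Ascl4 CA1 cells (n = 51 and 45 cells, log2(CPM + 1), both measures from the same library). For the other members it ran from 0.06 (Ciita) to 0.49 (H2-Aa) in Ascl4 GC cells. In Ascl4 CA1 cells it ran from 0.12 (H2-DMa) to 0.48 (H2-Aa). Of the 12 EGFP GC cells that carried H2-DMa, 2 had a microglia sum of 1000 CPM or more. With the sum of 9 markers of border macrophages and monocytes r of Cd74 was 0.73 in Ascl4 GC and 0.54 in Ascl4 CA1 cells, and with that of 7 dendritic cell markers 0.09 and 0.49.

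**Figure D3:**
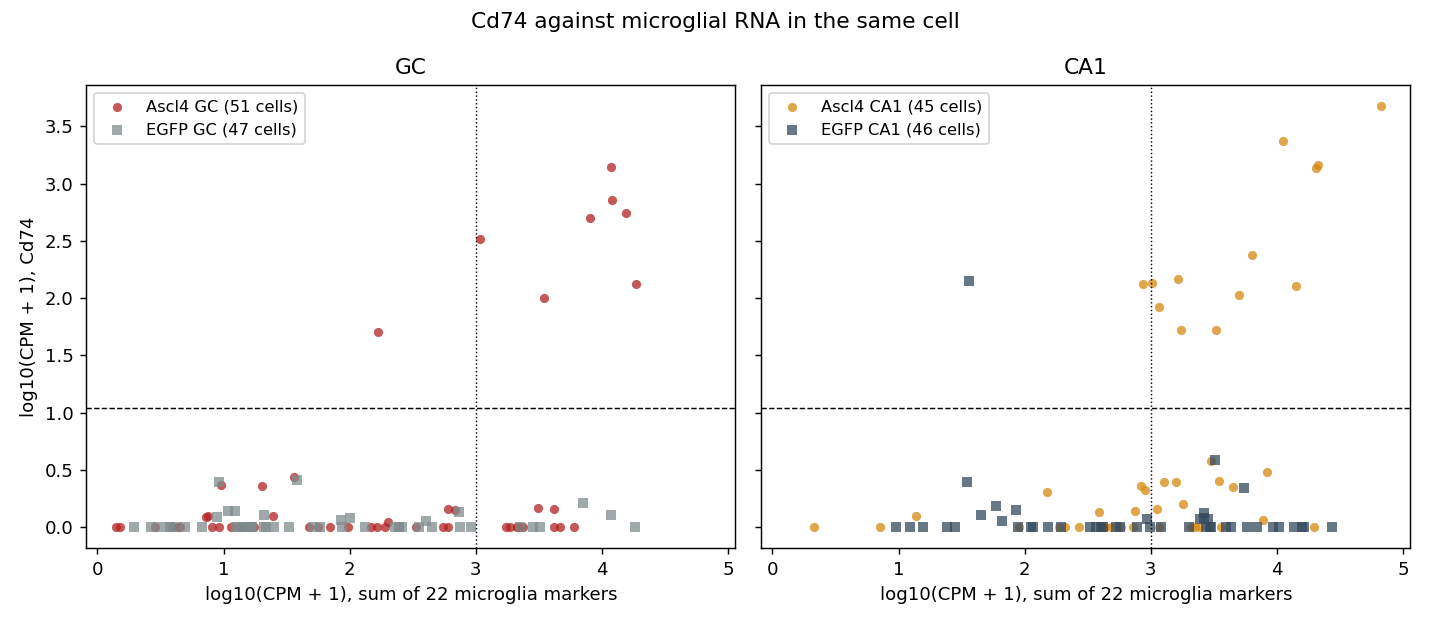
Cd74 on the vertical axis against the sum of 22 microglia markers on the horizontal axis, both as log10(CPM + 1), with GC cells on the left and CA1 cells on the right. Each point is 1 cell, circles are Ascl4 cells, squares are EGFP cells, the dashed line is at 10 CPM of Cd74 and the dotted line at 1000 CPM of microglia markers. The upper right field holds 7 Ascl4 GC and 12 Ascl4 CA1 cells and no EGFP cell, while EGFP cells up to 27569 CPM of microglia markers lie at the base line.

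The cells with at least 3 members held neuronal RNA as well, though unevenly. Snap25, a protein of the synaptic release machinery, stood between 1201 CPM (cell WA116) and 9222 CPM (cell WA120) in the 6 Ascl4 GC cells with at least 3 members. In the 5 such Ascl4 CA1 cells it ran from 409 CPM (cell WA226) to 5748 CPM (cell WA124), and in EGFP CA1 cell WA212 it was 1897 CPM. Cell WA226 had 66805 CPM of microglia markers beside it. Cell WA235 had 540 CPM of Snap25 and 20299 CPM of microglia markers. Over all Ascl4 CA1 cells Snap25 ran from 47.3 CPM (cell WA224) to 8475 CPM (cell WA125), and only cell WA224 had less than these. The neuronal gene Rbfox3 ran from 0 CPM (cell WA226) to 35.6 CPM (cell WA220) in the 5 Ascl4 CA1 cells. Over that whole group it ran from 0 to 785.1 CPM (cell WA224). In the 6 Ascl4 GC cells Rbfox3 ran from 100.02 CPM (cell WA118) to 461.8 CPM (cell WA114). In the 6 Ascl4 GC cells Ascl4 ran from 182.9 CPM (cell WA119) and 318 CPM (cell WA118) to 28980 CPM (cell WA114). Ascl4 was at 1613 CPM or more in the 5 Ascl4 CA1 cells. In Ascl4 CA1 cells, Pearson's r with the sum of 6 neuronal genes was -0.37 for Cd74, -0.39 for H2-Aa and -0.42 for H2-Ab1, and in Ascl4 GC cells it was -0.01, 0.05 and -0.08. Pearson's r of Cd74 with Ascl4 was -0.32 in Ascl4 GC and -0.01 in Ascl4 CA1 cells (n = 51 and 45).

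Markers of other cell types known for MHC class II were uneven between genes and cells. Of the 9 markers of border macrophages and monocytes, Mrc1, Cd163, Lyve1, F13a1 and Ms4a7, which mark the macrophages of the brain's borders, were below 0.5 CPM in all groups. Lyz2, a lysozyme gene of macrophages that microglia can also express, was at 37.6 CPM in Ascl4 GC and 3.22 CPM in EGFP GC cells, and at 124.9 CPM in Ascl4 CA1 and 35.99 CPM in EGFP CA1 cells. Pooled, the 9 genes summed to 58.4 CPM in Ascl4 GC and 3.32 CPM in EGFP GC cells, and to 128.5 CPM in Ascl4 CA1 and 41.9 CPM in EGFP CA1 cells. Among them 1 gene, not Lyz2, was at least 10-fold higher in Ascl4 GC cells, and 0 were in Ascl4 CA1 cells. Over all expressed genes 2.21% and 1.23% were, and 1 of the 9 passed that filter in each type. In single cells the sum of these 9 genes ran up to 1442 CPM in Ascl4 GC, 143.7 CPM in EGFP GC, 1801 CPM in Ascl4 CA1 and 1173 CPM in EGFP CA1 cells. The 3 highest sums were those of Ascl4 CA1 cell WA124 (1801 CPM), Ascl4 GC cell WA119 (1442 CPM) and Ascl4 CA1 cell WA226 (1435 CPM), which carried 6, 5 and 6 of the members, while Ascl4 GC cell WA057 (1220 CPM) and EGFP CA1 cell WA157 (1173 CPM) had less than 1 CPM of Cd74. The part of such RNA in the result was not tested. The 7 dendritic cell markers summed to 28.9 CPM in Ascl4 GC and 18.3 CPM in EGFP GC cells, and to 21.03 CPM in Ascl4 CA1 and 10.6 CPM in EGFP CA1 cells. Ascl4 GC cell WA033, the highest for that sum at 1006 CPM, carried no member. Of the 7, Clec9a and Cd209a were below 0.2 CPM in all groups. Itgax, an integrin of dendritic cells that activated microglia share, had no read in Ascl4 GC and EGFP GC cells and stood at 9.60 CPM in Ascl4 CA1 and 0.0160 CPM in EGFP CA1 cells. Of the 12 T cell markers, Cd2 and Nkg7 were at 0 reads in all groups, and the list summed to 0.249 CPM in Ascl4 GC, 0.0326 CPM in EGFP GC, 27.6 CPM in Ascl4 CA1 and 12.54 CPM in EGFP CA1 cells. The 5 B cell markers summed to 2.16 CPM in Ascl4 GC, 0.0047 CPM in EGFP GC, 1.77 CPM in Ascl4 CA1 and 0.168 CPM in EGFP CA1 cells.

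The other genes of the class II pathway differed by branch. Of 12 further class II and peptide processing genes, 5 were at least 1.5-fold higher and 0 lower in Ascl4 GC cells, and 7 were higher and 1 lower in Ascl4 CA1 cells, and 8 of the 12 passed the filter for expressed genes in each type. Over all expressed genes 25.6% were higher and 30.7% lower in GC, and 24.04% higher and 24.3% lower in CA1. H2-Oa, a chain of the DO protein that restrains DM, was at 6.38 CPM in Ascl4 GC cells against 2 reads in EGFP GC cells, and at 15.9 CPM in Ascl4 CA1 against 0.501 CPM in EGFP CA1 cells. Ctss, the cathepsin that trims Cd74, was at 355 CPM in Ascl4 GC against 53.2 CPM in EGFP GC cells, and at 1158 CPM in Ascl4 CA1 against 268 CPM in EGFP CA1 cells. It is also on the microglia list. Ifi30, a thiol reductase of the endosome, was at 16.1 CPM in Ascl4 GC against 1.75 CPM in EGFP GC cells, and at 18.7 CPM in Ascl4 CA1 against 8.54 CPM in EGFP CA1 cells. March1, a ligase that removes class II from the surface, was the lower gene in CA1, at 20.8 CPM in Ascl4 against 35.4 CPM in EGFP cells.

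Of 10 factors that act at class II promoters, 4 were at least 1.5-fold higher and 2 lower in Ascl4 GC cells, and 4 were higher and 0 lower in Ascl4 CA1 cells. Of all expressed genes, 25.6% were higher and 30.7% lower in GC, and 24.04% higher and 24.3% lower in CA1, and nothing is read from these counts of 10 factors. Rfx5, the X box subunit of RFX, differed in sign, with 13.1 CPM in Ascl4 GC and 34.9 CPM in EGFP GC cells, and 24.7 CPM in Ascl4 CA1 and 9.20 CPM in EGFP CA1 cells. Rfxap, its partner, was at 79.8 CPM in Ascl4 GC and 77.04 CPM in EGFP GC cells, and at 114.8 CPM in Ascl4 CA1 and 89.2 CPM in EGFP CA1 cells. Kat2b, an acetyltransferase that works with Ciita, was at 22.98 CPM in Ascl4 GC and 0.367 CPM in EGFP GC cells, and at 8.73 CPM in Ascl4 CA1 and 0.112 CPM in EGFP CA1 cells. Kat2b was at 10 CPM or more in 7 Ascl4 GC and 1 EGFP GC cells, and in 3 Ascl4 CA1 and 0 EGFP CA1 cells.

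Genes on the path from interferon gamma to Ciita were measured in the same groups. Of 7 listed genes of this signalling, 3 were at least 1.5-fold higher and 2 lower in Ascl4 GC cells. In Ascl4 CA1 cells 3 were higher and 0 lower, and 4 of the 7 passed the filter for expressed genes in GC and 5 in CA1. Of all expressed genes, 25.6% were higher and 30.7% lower in GC, and 24.04% higher and 24.3% lower in CA1. Nothing is read from these counts of 7 genes. Ifng itself had 0 reads in Ascl4 GC, EGFP GC and Ascl4 CA1 cells and 1 read in EGFP CA1 cells. Irf1, a transcription factor that acts at Ciita, was at 144.1 CPM in Ascl4 GC and 13.2 CPM in EGFP GC cells, and at 50.5 CPM in Ascl4 CA1 and 21.3 CPM in EGFP CA1 cells. These pooled levels do not show which cells held Irf1. In the 6 Ascl4 GC cells with at least 3 members it ran from 0 CPM (cells WA116 and WA119) to 684 CPM (cell WA032). In the 5 such Ascl4 CA1 cells it was at most 2.82 CPM (cell WA235). Ascl4 GC cell WA106 had 1652 CPM of Irf1 and carried no member. The receptor gene Ifngr1 was at 2.10 CPM in Ascl4 GC and 11.1 CPM in EGFP GC cells, and at 35.7 CPM in Ascl4 CA1 and 13.3 CPM in EGFP CA1 cells. Of 18 genes known to respond to interferon gamma, 16 were at least 1.5-fold higher in Ascl4 GC and 14 in Ascl4 CA1 cells, and 1 (Irf8) and 0 were at least 1.5-fold lower. Over all expressed genes 25.6% were higher in GC and 24.04% in CA1, but 6 of the 18 passed the filter for expressed genes in each type. Pearson's r of Cd74 with the sum of these genes was 0.28 in Ascl4 GC and 0.48 in Ascl4 CA1 cells (n = 51 and 45).

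**Figure D4:**
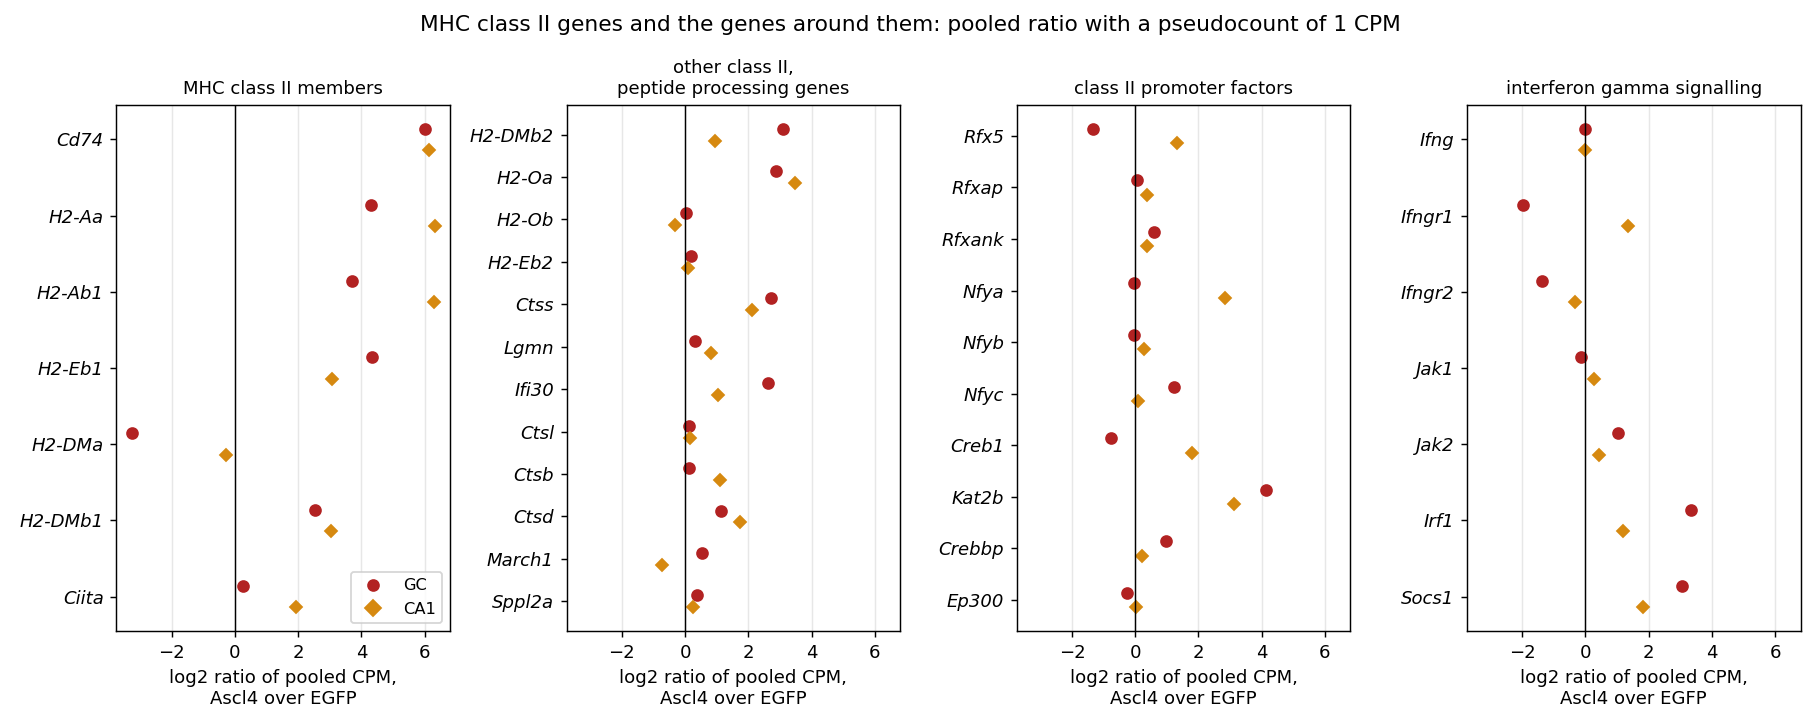
Log2 ratio of pooled CPM, Ascl4 over EGFP, with a pseudocount of 1 CPM, for the 7 members and for genes of 3 related lists. Circles are GC and diamonds are CA1, each point compares 1 summed sample with another, and no error between animals can be given. Cd74 lies near 6 in both cell types, H2-DMa lies at -3.27 in GC and -0.28 in CA1, and Irf1 lies at 3.35 in GC and 1.21 in CA1.

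MHC class I genes, which show peptides from inside the cell, were carried as well. H2-D1, a class I heavy chain, was at 10 CPM or more in 19 of 51 Ascl4 GC and 5 of 47 EGFP GC cells, and in 19 of 45 Ascl4 CA1 and 5 of 46 EGFP CA1 cells. B2m, its light chain, was in 25 Ascl4 GC and 7 EGFP GC cells, and in 30 Ascl4 CA1 and 13 EGFP CA1 cells. Of the 7 class I genes, 6 were at least 1.5-fold higher in Ascl4 cells of each type, where 25.6% of expressed genes were in GC and 24.04% in CA1, and 4 of the 7 passed the filter for expressed genes in each.

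The genes whose pattern over all kept cells was most like Cd74, by Pearson's r of log2(CPM + 1) among 10357 genes other than the members, included 6 MHC genes among the first 10. The members themselves were left out of that ranking, and H2-Aa had r = 0.74 with Cd74 over the same cells. H2-Q6 led with r = 0.65, followed by H2-Oa (0.64), H2-K1 (0.63), H2-Q1 (0.62) and H2-Q7 (0.61). After them came Cd52 (0.60), a surface glycoprotein of leukocytes, then Lair1 (0.59), an inhibitory receptor of immune cells, Bcl2a1d (0.59), a survival gene of the Bcl2 family, the chemokine gene Ccl5 (0.59) and H2-D1 (0.59). H2-Q6 and H2-Q7 are close copies, and their split of reads is uncertain. By Spearman's rho the leading gene was Lyz2 (0.55), and 4 of the first 10 genes were the same, H2-Q6, H2-K1, H2-Q7 and H2-D1. The others by rho were Bcl2a1b, Tnf, Lyz1, C1qc and Ctss, with rho of 0.46 to 0.49, of which C1qc and Ctss are on the microglia list. These are likenesses across cells that share depth and library, without a test.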

How the data were processed

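Reads of single patched neurons were processed by the authors with STAR and HTSeq on GRCm38.p4, per the submitters' processing notes. The sources used here give neither versions nor settings. The authors deposited read counts per gene for all sequenced cells and for those kept by their quality control, with identical counts in shared cells. They also deposited a normalized signal for the kept cells, which equals the counts divided by 1 factor per cell. The kept table holds 51 Ascl4 GC, 47 EGFP GC, 45 Ascl4 CA1 and 46 EGFP CA1 cells and was used, although the series text gives other numbers. The 92 spike-in rows, with 4 reads in kept cells, were left out of totals.

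Groups came from the titles. Counts were summed per group, scaled to CPM and compared as log2 ratios with a pseudocount of 1 CPM. Intervals were exact Poisson or Clopper-Pearson at 95%, and the limit for a count of 0 was 3 counts. Cells that carried a gene had 10 CPM or more. With no animal named, no test or p-value was computed. Named genes were the 7 members, genes of 18 lists, and the 10 genes most like Cd74 among those at 10 CPM in at least 5% of cells, leaving out predicted models and pseudogenes. Members, lists and marks were chosen with earlier results of these data known. Positions came from GENCODE M21 and promoters from RefSeq. The pooled ratios were first checked on simulated counts whose answers were known, drawn with the same mean for all cells of a group. The intervals were checked against their definitions. Counts of cells, shared cells, correlations and promoter letters were not checked in this way.

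Alternatives were the mean over cells with and without the highest cell, all sequenced cells, other pseudocounts and filters, scaling by TMM (edgeR 4.0.16) or by median of ratios (DESeq2 1.42.0), both used for scaling only, the deposited signal, each run of title numbers, and leaving out deep or many-gene cells. For counts of cells they were other marks and thinning. Leaving out Ascl4 CA1 cell WA226 or H2-DMa was chosen after seeing the data. Statistics used scipy 1.17.1 and numpy 2.4.6, tables pandas 2.3.3 and figures matplotlib 3.10.9, under Python 3.11.15, with R 4.3.3 for the scaling. Raw reads were not analysed here, and 1 gene of the lists is not reported here.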

Additional observations from a re-analysis of the deposited data

Results flagged for a closer look

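MHC class II reads also appeared in cells that the authors' quality control dropped and that enter no comparison above. Cd74 stood at 1828 CPM in dropped Ascl4 CA1 cell WA170 (2273 of 1243613 reads), against at most 139.4 CPM in an EGFP CA1 cell, the kept cell WA185. H2-Ab1 stood at 56.3 CPM in dropped Ascl4 CA1 cell WA217, which is 4 of 71042 reads, against at most 3.29 CPM in an EGFP CA1 cell. H2-DMb1 stood at 12859 CPM in dropped Ascl4 CA1 cell WA174 (873 of 67889 reads), against 606 CPM in dropped EGFP CA1 cell WA158. A dropped EGFP GC cell, WA063, held Cd74 at 437 CPM beside 1228 CPM of microglia markers, while no kept EGFP GC cell reached 2 CPM of Cd74. The dropped cells did not pass the authors' quality control, whose rules were not used here.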

How the results depend on the processing

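No paired analysis was possible because each title number belongs to 1 cell, and each group counted as 1 sample. Over all settings tried, the log2 ratio of Cd74 ran from 3.03 to 8.28 in GC (12 settings) and from 4.42 to 6.92 in CA1 (13 settings), and H2-Aa, H2-Ab1, H2-Eb1 and H2-DMb1 stayed above 0 in all. H2-DMa stayed below 0 in GC (-4.57 to -2.45) and ran from -0.69 to 0.06 in CA1. Ciita reversed in CA1 in the second run (-0.47). With all cells, Cd74 in GC was 4.51 and H2-DMb1 in CA1 was 0.04. The number of members at least 10-fold higher in GC was 4, and 0 with a pseudocount of 10 CPM, 3 in the first run and without cells of more than 12000 genes, and 5 in the second run and with 0.1 CPM. In CA1 it was 3, against 5 with 0.1 CPM, 1 with 10 CPM and 5 in the first run. The share of expressed genes at least 10-fold higher in CA1 was 1.23%, and 2.04% with the looser filter.

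Cells with at least 1 gene, counted from 1 read, were 40 in Ascl4 GC, 42 in EGFP GC, 43 in Ascl4 CA1 and 39 in EGFP CA1. From 1 CPM they were 19 in Ascl4 GC, 20 in EGFP GC, 33 in Ascl4 CA1 and 23 in EGFP CA1. At 10 CPM the second run held 8 of 18 Ascl4 GC, 8 of 32 EGFP GC, 18 of 28 Ascl4 CA1 and 12 of 31 EGFP CA1 cells. Without H2-DMa there were 13 in Ascl4 GC, 1 in EGFP GC, 18 in Ascl4 CA1 and 5 in EGFP CA1. Cells with at least 3 genes, from 1 read, were 13 in Ascl4 GC, 8 in EGFP GC, 23 in Ascl4 CA1 and 11 in EGFP CA1. The runs held 1 of 33 and 5 of 18 such Ascl4 GC cells. EGFP CA1 had 0 at 100 CPM, in the first run and without H2-DMa. Thinning cells to 500000 reads left 6 in Ascl4 GC, 0 in EGFP GC, 5 in Ascl4 CA1 and 1 in EGFP CA1. The causes were not tested. Low reads limit what can be said below 10 CPM.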

Other observations

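Below 10 CPM, a few reads of Cd74 were found in 11 Ascl4 GC, 12 EGFP GC, 15 Ascl4 CA1 and 12 EGFP CA1 cells. These cells held at most 7 reads of it in Ascl4 GC, 11 in EGFP GC, 8 in Ascl4 CA1 and 7 in EGFP CA1. H2-DMb2, the close copy of H2-DMb1, was at 10 CPM or more in 4 of 51 Ascl4 GC and 0 of 47 EGFP GC cells, and in 3 of 45 Ascl4 CA1 and 1 of 46 EGFP CA1 cells.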
